A study of Mus musculus with 30 samples.

Results

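The miRNA hairpins read by traditional-seq in the prefrontal cortex of AD and WT mice are described here. A hairpin counted as a member when at least 1 read, over its whole length, matched the sense strand of a transcript that GENCODE M21 annotates as miRNA, and 1617 of 2202 annotated hairpins did so. The 14 traditional-seq libraries (7 WT and 7 AD) are part of a series of 30 libraries, and the others were made by PANDORA-seq, which removes RNA modifications with enzymes before library construction. Every mouse was 6 months old and of the congenic C57BL6/J strain. The AD mice were hemizygous for the 5xFAD transgene, which expresses human APP with familial Alzheimer's disease mutations in neurons. The WT mice were their littermates without the transgene, and both sexes were used. The sex of each library was not analysed here. This transgene gives amyloid plaques without the tau tangles of the human disease, which limits it as a model. RNA of 15 to 50 nt had been cut from a gel, so longer precursors were not sampled.

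A miRNA gene is transcribed as a long RNA that folds back on itself, and the enzymes Drosha and Dicer cut a short duplex out of the hairpin. The strand from the 5′ side of the hairpin is called the 5p arm and that from the 3′ side the 3p arm. One strand is usually loaded into an Argonaute protein and guides it to messenger RNAs that pair with the seed, bases 2 to 8 of the miRNA, while the partner strand is degraded. Neurons of the cortex are known for high levels of miR-9, miR-124, miR-128 and let-7, oligodendrocytes for miR-219 and miR-338, and microglia for miR-146a, miR-155 and miR-142.

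Hairpins that give the same miRNA cannot be told apart by most of its reads, and 32.5% of the 71037704 hairpin reads matched more than 1 hairpin. Hairpin arms were therefore joined into a product when they shared over 50% of the reads of the smaller arm, and this gave 1449 products from 2609 hairpin arms. Only 1019 hairpins had a read that matched no other hairpin. RefSeq mature names were found for 1047 products, and the others are named by hairpin and arm. Levels are in RPM, reads scaled to 1000000 hairpin reads of the library. RPM was not corrected by the TMM normalization factors of the edgeR fit, which ranged from 0.647 (WT 1) to 1.51 (WT 2). A large share of a single product therefore lowers the RPM of all others in that library.

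The mature miRNAs below carried most of the reads, or are those that the comparison of AD with WT turns on, and they are grouped by shared seed. The sequences are those of RefSeq on build GRCm38.p6, 5′ to 3′, with the seed in capitals. The let-7 products, which repress growth and developmental timing genes, share a seed.
let-7f-5p: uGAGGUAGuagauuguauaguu
let-7i-5p: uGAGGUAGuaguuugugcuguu
let-7g-5p: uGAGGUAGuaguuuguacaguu
let-7a-5p: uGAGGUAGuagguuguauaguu
miR-99a-5p and miR-100-5p have a common seed too, and so do miR-204-5p and miR-211-5p.
miR-99a-5p: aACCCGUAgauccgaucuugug
miR-100-5p: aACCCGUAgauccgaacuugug
miR-204-5p: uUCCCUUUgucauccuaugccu
miR-211-5p: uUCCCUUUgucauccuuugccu
The other abundant products each have a seed of their own among the sequences shown.
miR-128-3p: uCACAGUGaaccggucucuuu
miR-148a-3p: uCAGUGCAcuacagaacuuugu
miR-9-5p: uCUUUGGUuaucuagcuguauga
miR-26a-5p: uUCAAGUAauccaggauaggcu
miR-7a-5p: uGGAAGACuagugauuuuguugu
miR-218-5p: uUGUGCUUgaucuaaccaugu
miR-127-3p: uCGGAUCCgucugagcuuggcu
The last group holds products of immune cells and of the Hox gene clusters, described further on.
miR-146a-5p: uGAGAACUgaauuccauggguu
miR-155-5p: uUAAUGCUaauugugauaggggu
miR-142a-5p: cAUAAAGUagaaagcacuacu
miR-142a-3p: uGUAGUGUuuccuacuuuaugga
miR-10a-5p: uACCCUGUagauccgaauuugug

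miR-128-3p, a neuronal miRNA that lowers excitability, was the most abundant product in all 14 libraries and held 24.9% of hairpin reads on average. miR-148a-3p came next with 10.2%, and miR-9-5p, a regulator of neurogenesis, with 8.39%. The 10 products with the highest means held 71.1% of the reads, the 50 highest held 92.8%, and 883 of the 1449 products had a mean under 1 RPM. There were 16 products over 10000 RPM, 67 over 1000 RPM and 178 over 100 RPM, and 515 products had a read in every library. These levels count exact matches only, so ranks depend on how often reads end in an untemplated base. In WT such reads were 76.0% for miR-127-3p and 10.8% for miR-148a-3p, of exact reads and reads with 1 such base together.

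In WT mice miR-128-3p had a lowest level of 142174 RPM, a median of 227191 RPM and a highest of 526219 RPM. In AD mice the lowest level was 174433 RPM, the median 242319 RPM and the highest 322068 RPM. The groups overlapped, and WT 1 stood above every other library. The estimate was a log2 fold change (AD over WT, edgeR) of -0.25 ± 0.37 (SE), and without WT 1 it was 0.27. The 2 miR-128 hairpins lie on chr1 and chr9, and the mature sequence in RefSeq is placed at chr1:128202404-128202424 on the plus strand, in an intron of R3hdm1.

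The hairpins of miR-128 differ just after the common mature sequence, so the longer reads separate them. Reads that matched only Mir128-1 made up 54.0% ± 3.7 (SD, n = 7) of miR-128-3p reads in WT and 55.5% ± 3.5 in AD mice, and reads that matched only Mir128-2 made up 17.96% ± 4.8 in WT and 17.9% ± 3.8 in AD mice. The rest fitted both hairpins. A Mir128-2 product to which a U was added after transcription would be counted for Mir128-1, and its part was not tested. The 4 most frequent reads of miR-128-3p, with the seed in capitals, held 41.2%, 24.6%, 16.6% and 14.2% of its reads in this order, and the read that ends in c is the Mir128-2 form.
miR-128-3p read, 22 nt: tCACAGTGaaccggtctctttt
miR-128-3p read, 21 nt: tCACAGTGaaccggtctcttt
miR-128-3p read of Mir128-2, 22 nt: tCACAGTGaaccggtctctttc
miR-128-3p read, 23 nt: tCACAGTGaaccggtctcttttt

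miR-148a-3p, made from a hairpin whose mature sequence lies at chr6:51269829-51269850 on the minus strand, ranged from 41126 to 163133 RPM in WT (median 100975) and from 48465 to 158431 RPM in AD mice (median 102769). miR-9-5p ranged from 56144 to 133075 RPM in WT (median 88174) and from 52510 to 108102 RPM in AD mice (median 85381). Both pairs of groups overlapped over most of their range. The log2 fold changes were -0.06 ± 0.31 (SE) for miR-148a-3p and -0.02 ± 0.20 for miR-9-5p.

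The 9 let-7 and miR-98 products with the seed GAGGUAG held 17.8% ± 5.3 (SD, n = 7) of hairpin reads in WT and 20.7% ± 4.4 in AD mice. The most abundant, let-7f-5p, had a median of 58537 RPM in WT (30353 to 122776) and 80976 RPM in AD mice (40605 to 122478). let-7i-5p had medians of 59232 RPM in WT (35130 to 69432) and 60830 RPM in AD mice (41381 to 72618). let-7g-5p was among the steadiest of the 100 most abundant products, with a coefficient of variation of 20.6% over the 14 libraries, and its medians were 40080 RPM in WT (23226 to 49010) and 42290 RPM in AD mice (37015 to 54209). Groups overlapped for each of the let-7 products named, and their log2 fold changes were 0.28 ± 0.38, 0.22 ± 0.22 and 0.29 ± 0.21 (SE).

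miR-99a-5p, a product of the Mir99ahg intron at chr16:77598940-77598961, varied most among the 12 most abundant products. It was at 1087 RPM (4216 reads) in WT 2 and between 14952 and 103313 RPM in the other WT libraries, and between 13052 and 87628 RPM in AD mice. WT 2 thus stood alone below both groups. The log2 fold change of miR-99a-5p was 0.00 ± 0.63 (SE), with a 95% interval from -1.34 to 1.34.

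The rest of the 12 most abundant products were miR-26a-5p, miR-7a-5p, the Mir30d 5p arm, miR-218-5p and miR-127-3p. miR-26a-5p had medians of 28492 RPM in WT (14036 to 39428) and 26833 RPM in AD mice (18476 to 37810). miR-7a-5p, which joins 2 hairpins, 1 of them in an intron of Hnrnpk, and is abundant in neuroendocrine cells, had medians of 13247 RPM in WT (6748 to 41334) and 13115 RPM in AD mice (6938 to 40049). It was highest in WT 6 and AD 3, with each group spread over a similar range. The Mir30d 5p arm had medians of 13834 RPM in WT (11130 to 23139) and 17736 RPM in AD mice (11293 to 21269). miR-218-5p, a motor neuron and cortical miRNA, had medians of 14204 RPM in WT (4951 to 37518) and 13543 RPM in AD mice (5000 to 31744). It joins 2 hairpins, and the one with the mature sequence placed here lies in an intron of Slit3. miR-127-3p, from the imprinted Dlk1-Dio3 region, had medians of 12979 RPM in WT (5052 to 18528) and 11519 RPM in AD mice (10169 to 14845). AD and WT overlapped for each of these products, and their log2 fold changes lay between -0.23 ± 0.44 (miR-218-5p) and 0.14 ± 0.20 (Mir30d 5p arm).

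**Figure D1:**
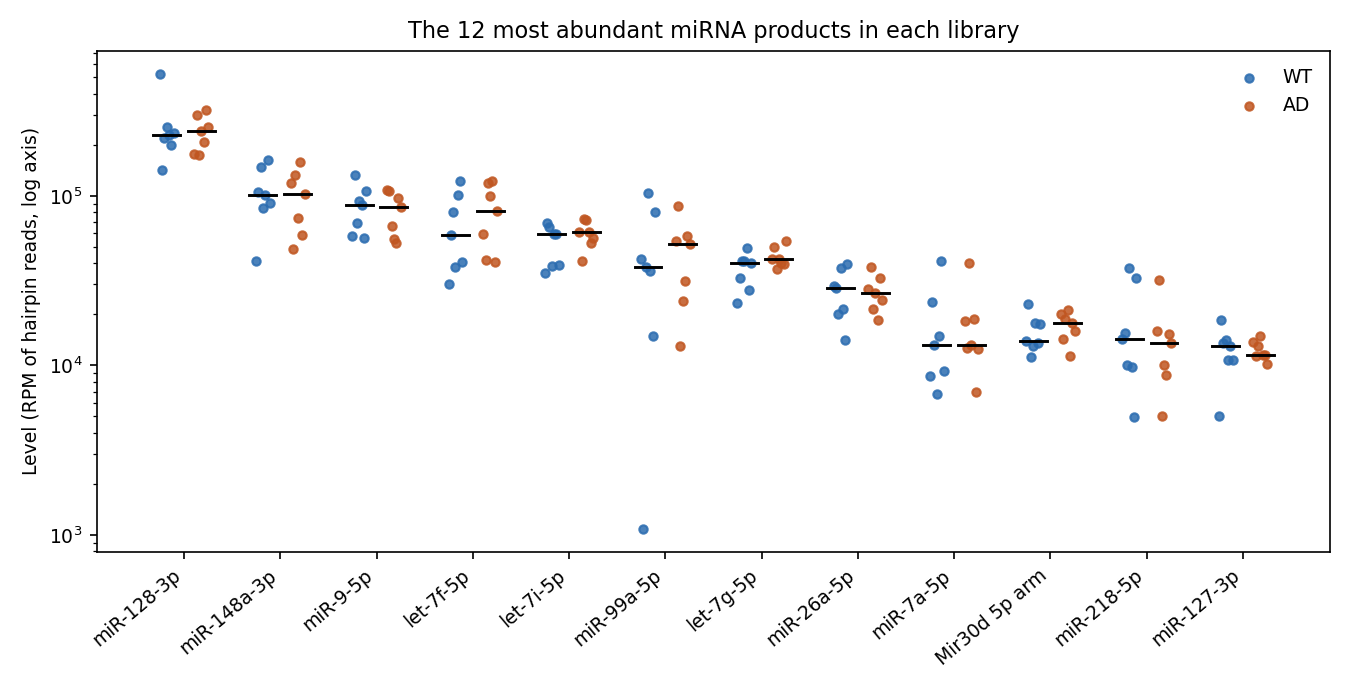
Level in RPM of hairpin reads (log axis) of the 12 products with the highest mean, with a point for each of the 7 WT and 7 AD libraries and a line at the median of each group. WT and AD points overlap for each product, WT 1 is highest for miR-128-3p at 526219 RPM, and WT 2 is far below the other libraries for miR-99a-5p at 1087 RPM.

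Libraries differed from each other more than the genotypes did in several products. Over the 100 most abundant products tested, the median ratio of the highest to the lowest library was 3.82, and it was over 10 for 14 products and under 2 for 1 product, let-7d-5p. The largest ratio was that of miR-183-5p, a sensory neuron miRNA, which had 19675 RPM in WT 3, 3909 RPM in AD 3 and 3015 RPM in AD 2, and between 30.1 and 984 RPM elsewhere. The leading principal component of the levels held 42.5% of the variance and the next 14.5%. The common coefficient of biological variation in edgeR was 0.55.

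Before AD was compared with WT, the libraries were described by marker lists of the cortex and of tissue near it. Neuronal products summed to 273394 to 612925 RPM in WT and 256564 to 451503 RPM in AD mice. miR-124, the Mir124a-1 3p arm, had medians of 660 RPM in WT (322 to 1884) and 779 RPM in AD mice (380 to 1101), which was rank 76 among all products. The vascular list (miR-126a, miR-143 and miR-145) summed to 14163 to 30899 RPM in WT and 13962 to 24883 RPM in AD mice, and the erythroid list (miR-451a, miR-144 and miR-486) to 375 to 794 RPM in WT and 298 to 752 RPM in AD mice. These 3 lists overlapped between genotypes.

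Markers of tissue outside the cortex were uneven. The olfactory list (the miR-200 family and miR-141) summed to 8038 RPM in WT 3 and 6393 RPM in AD 2, against medians of 296 RPM in WT and 359 RPM in AD mice. The muscle list summed to 21894 RPM in AD 4, almost all of it the miR-1a product with 21720 RPM, against medians of 1290 RPM in WT and 1077 RPM in AD mice. WT 7 was the next highest in the muscle list with 7289 RPM, and the highest of the WT libraries in the liver list with 691.5 RPM. AD 4 was also highest for the hindbrain and spinal cord list (miR-10a, miR-10b and miR-196) with 2957 RPM and for liver miR-122 with 2088 RPM. AD 3 was next in the liver list with 845 RPM, and next after WT 3 and AD 2 in the olfactory list with 948 RPM. In the hindbrain and spinal cord list 2 products were tested and the median log2 fold change was 1.16, against 1.18 for the 1 liver product, -0.08 for 3 muscle products and -0.05 for 5 olfactory products. Without AD 4 the hindbrain and spinal cord median was 0.29, the liver value 0.21 and the muscle median -1.12, and without WT 7 the muscle median was 0.76. The olfactory median was -1.78 without AD 2 and 1.83 without WT 3, so single libraries set the sign of the muscle and olfactory lists. Without WT 3, 3 of 5 olfactory products had an unadjusted p under 0.05. Over all products, leaving out each library in turn gave 5 to 16 such products. The liver product had medians of 177 RPM in WT and 178 RPM in AD mice. The counts of calls were also made without WT 3, AD 2 and AD 4, a choice made after these values were seen, and without WT 7 alone.

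**Figure D2:**
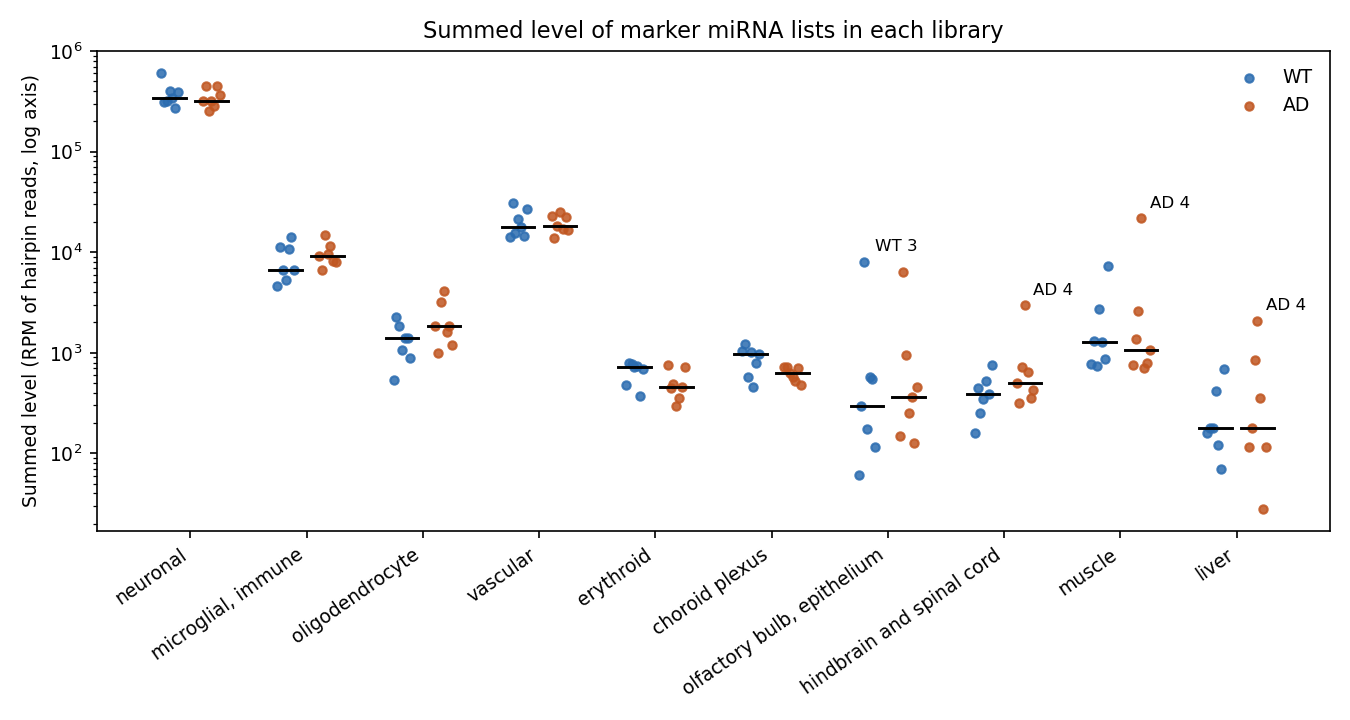
Summed level in RPM (log axis) of the products of each marker list, with a point for each of 7 WT and 7 AD libraries and a line at each median. Neuronal products are 273394 RPM or more in every WT library, and the libraries that stand far above the rest are WT 3 (8038 RPM) and AD 2 (6393 RPM) in the olfactory list and AD 4 in the muscle list (21894 RPM, with WT 7 next at 7289 RPM) and the hindbrain list (2957 RPM).

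The main comparison asked which miRNA products differed between AD and WT mice. No product was called at an adjusted p under 0.05 (edgeR's quasi-likelihood test, Benjamini-Hochberg adjustment), with or without a fold change over 2, so the share called was 0% of the 482 products tested. Those 482 products held 99.97% of hairpin reads. At an unadjusted p under 0.05 there were 9 products (1.87%), of which 7 (1.45%) were higher and 2 (0.415%) lower in AD mice, and the smallest adjusted p was 0.997. The likelihood ratio test called 0 products with 10 at an unadjusted p under 0.05, and DESeq2 called 0 with 11. The median log2 fold change over all products tested was -0.02, with quartiles of -0.20 and 0.17, and 226 estimates were above 0 and 256 below.

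A p that misses the threshold does not show that levels were equal, so the intervals matter. For 245 of the 482 products the 95% interval lay within a change of 2-fold in either direction, and for the others it reached beyond a 2-fold change. The median SE was 0.36 on the log2 scale. The 10 products with the smallest p are given next, by role, as products that were not called.

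Among miRNAs of microglia and other immune cells, miR-155-5p and miR-146a-5p had the 2nd and 3rd smallest p. miR-155 promotes inflammatory signalling and lies in an exon of its host RNA Mir155hg at chr16:84714143-84714165. miR-155-5p was at 0.56 to 6.11 RPM in WT (median 1.69) and 2.76 to 10.7 RPM in AD mice (median 4.86). All 7 AD libraries were above the WT median, but WT 5, with 6.11 RPM, lay above 5 of them. The log2 fold change was 1.36 ± 0.43 (SE; edgeR adjusted p = 0.997), and it rested on 4 to 56 reads a library. Leaving out each library in turn gave 1.21 (without AD 2) to 1.88 (without WT 5, the WT library with the highest level). The fit without WT 5 had an edgeR adjusted p of 0.0656, the smallest of any product in all these fits.

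miR-146a-5p, which damps the signalling of Toll-like receptors and is placed at chr11:43374435-43374456 on the minus strand, had 99.1 to 364 RPM in WT (median 219.2) and 130 to 1203 RPM in AD mice (median 346). The highest AD library was AD 2, the next AD 1 with 548 RPM, and AD 3 was as low as the low WT libraries. The log2 fold change was 1.14 ± 0.43 (SE; edgeR adjusted p = 0.997), and without AD 2 it was 0.57. Its seed partner miR-146b-5p was more abundant, with medians of 1909 RPM in WT (1410 to 3050) and 2412 RPM in AD mice (1434 to 2812), and its log2 fold change was 0.14 ± 0.21.

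The whole microglial, immune and inflammatory list had 7 products tested, with 6 estimates above 0 and 1 below, 2 at an unadjusted p under 0.05, both higher in AD mice, and 0 called. Over all products tested, 1.87% had an unadjusted p under 0.05. The median log2 fold change of the list was 0.67, against -0.02 over all products. Leaving out each library in turn gave medians of 0.49 (without AD 2) to 0.79 (without WT 4), with 6 or 7 estimates above 0. The summed level of the list was 4590 to 14248 RPM in WT (median 6621) and 6625 to 14870 RPM in AD mice (median 9248), and these ranges overlapped. AD 2, the library with the high olfactory list, had the highest miR-146a-5p and miR-142a and the lowest summed level of the AD libraries. The part of other tissue in these values was not tested. The most abundant member, miR-21a-5p, had medians of 4397 RPM in WT (2724 to 12173) and 5661 RPM in AD mice (3779 to 12241), with a log2 fold change of 0.23 ± 0.35. The products of miR-142a, a miRNA of all blood-forming cells, had log2 fold changes of 1.18 ± 0.58 (miR-142a-3p) and 0.67 ± 0.33 (miR-142a-5p), and of 0.49 and 0.50 without AD 2. AD 2 had 28.4 RPM of miR-142a-3p and 87.0 RPM of miR-142a-5p, above every WT library, as had AD 1 and AD 6. In bulk tissue, more cells of a type and more RNA per cell cannot be told apart.

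Among oligodendrocyte products the Mir219a-2 3p arm, which takes part in myelination, had 380 to 2019 RPM in WT (median 1270) and 710 to 3884 RPM in AD mice (median 1553). AD 4 and AD 3 were above all WT libraries and the rest overlapped. AD 4 was also the library with the highest hindbrain and spinal cord list (2957 RPM) and muscle list (21894 RPM). AD 3 came next after AD 4 in the liver list (845 RPM). The part of these tissues in the levels of AD 4 and AD 3 was not tested. The log2 fold change was 0.82 ± 0.38 (SE; edgeR adjusted p = 0.997), and leaving out each library in turn gave 0.53 (without AD 4) to 0.99, and 0.81 without WT 3, AD 2 and AD 4 together. Of the 5 oligodendrocyte products tested, 4 estimates were above 0 and the median was 0.31. Of the 5, 1 had an unadjusted p under 0.05, against 1.87% of all products tested. There was none when any of AD 3, AD 4, WT 1, WT 2, WT 4, WT 5 or WT 7 was left out alone. miR-338-5p had medians of 122 RPM in WT (73.3 to 188) and 151 RPM in AD mice (120 to 255), with a log2 fold change of 0.31 ± 0.26.

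miR-211-5p had the smallest p of all. It shares its seed with miR-204-5p, from which its sequence differs at a single base. miR-211-5p lies at chr7:64205831-64205852 in an intron of Trpm1, a gene of pigment cells. Its level was 0.24 to 5.4 RPM in WT (median 0.56), 0 in AD 3, and 5.85 to 31.1 RPM in the other AD libraries (AD median 12.6). Thus 6 AD libraries were above all WT libraries and 1 was below them all. The log2 fold change was 2.83 ± 0.83 (SE; edgeR adjusted p = 0.997), from 0 to 162 reads a library. Misread miR-204-5p reads could enter this count, and their part was not tested. miR-204-5p, known from choroid plexus and pigment epithelium, ranked 87th among all products against 361st for miR-211-5p, with medians of 950 RPM in WT (419 to 1164) and 581 RPM in AD mice (439 to 675). Its log2 fold change had the opposite sign, -0.52 ± 0.26 (edgeR adjusted p = 0.997). The choroid plexus list had 3 products tested, 1 estimate above 0 and 2 below, and a median of -0.43. Leaving out each library in turn gave medians of -0.52 (without AD 3) to -0.14 (without WT 6). Of the 3 products, 1 had an unadjusted p under 0.05, against 1.87% of all products tested. It was 2 of 3 without AD 2, WT 3 or WT 5 alone, and such fits gave 5 to 16 over all products.

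miR-10a-5p and miR-100-5p were at their highest in AD 4, the library with muscle and hindbrain markers. miR-10a-5p, from the HoxB cluster at chr11:96317186-96317208, had 91.7 to 435 RPM in WT (median 237), 1824 RPM in AD 4 and 229 to 545 RPM in the other AD libraries. Its log2 fold change was 1.24 ± 0.46 (SE; edgeR adjusted p = 0.997), and 0.52 without AD 4. miR-100-5p had 3130 to 9227 RPM in WT (median 7727) and 7188 to 21227 RPM in AD mice (median 10178). WT 1 was lowest, and 4 AD libraries were above all WT libraries. Its log2 fold change was 0.64 ± 0.27 (edgeR adjusted p = 0.997), and 0.37 without AD 4.

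The remaining 4 of these products were at low levels. miR-3064-5p, which overlaps an exon of Ddx5, had medians of 1.30 RPM in WT (0.71 to 2.42) and 2.58 RPM in AD mice (1.35 to 5.85), with a log2 fold change of 1.03 ± 0.41. miR-216b-5p had medians of 4.38 RPM in WT (2.28 to 6.05) and 2.40 RPM in AD mice (1.4 to 3.83), with a log2 fold change of -0.82 ± 0.36. miR-377-5p, from the lncRNA Mirg, had medians of 5.20 RPM in WT (2.12 to 9.02) and 2.69 RPM in AD mice (1.53 to 4.96), with a log2 fold change of -0.66 ± 0.31. miR-137-5p, the minor strand of a neuronal miRNA, had medians of 11.98 RPM in WT (8.54 to 28.9) and 10.3 RPM in AD mice (4.04 to 13.9), with a log2 fold change of -0.59 ± 0.29. All 4 pairs of groups overlapped.

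**Figure D3:**
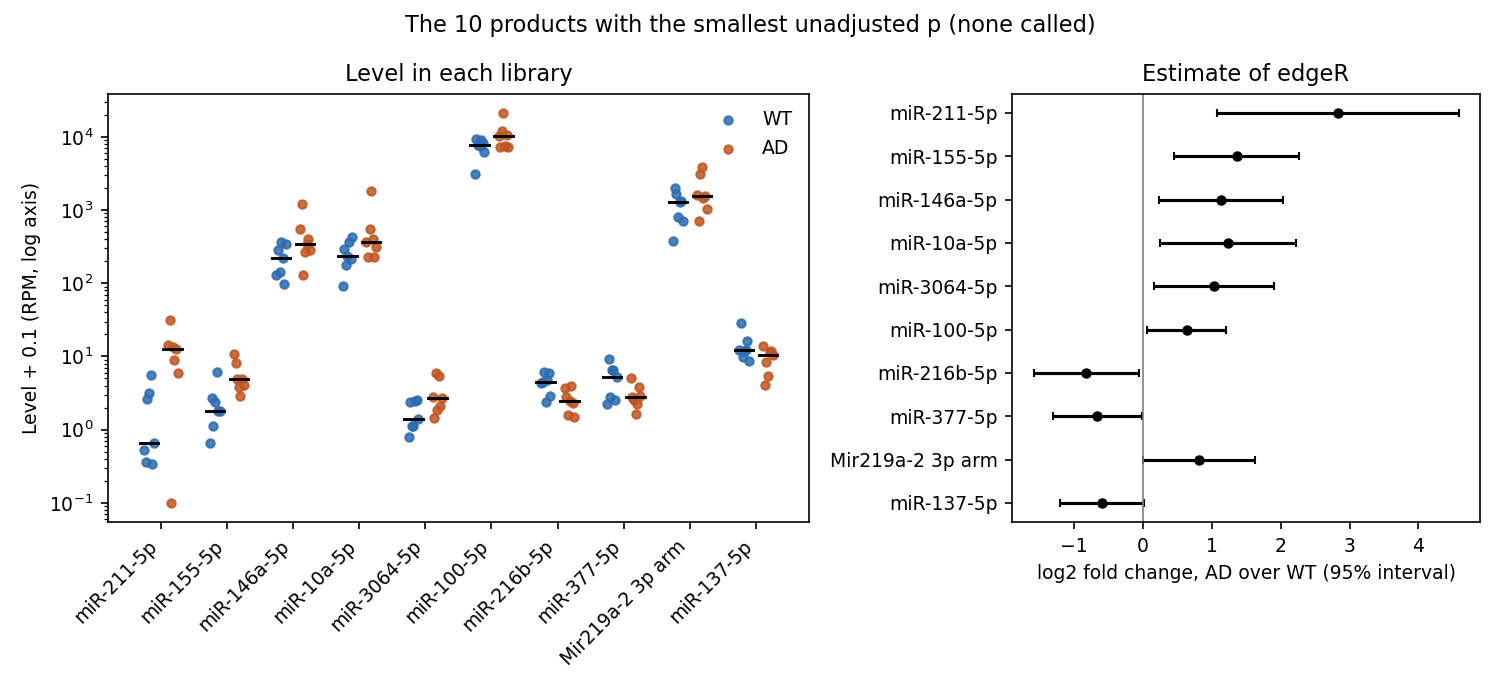
The left panel gives the level of the 10 products with the smallest unadjusted p in each library (RPM plus 0.1, log axis) with a line at each median, and the right panel the log2 fold change, AD over WT, of edgeR with its 95% interval. None was called. miR-211-5p has the largest estimate, 2.83, with 1 AD library at 0 RPM below all WT points and 6 above them, and the AD and WT points overlap for the other products.

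Of 21 neuronal products tested, 3 estimates were above 0 and 18 below, none had an unadjusted p under 0.05, and the median log2 fold change was -0.21 against -0.02 over all products. Leaving out each library in turn gave medians of -0.26 (without WT 5) to -0.11 (without AD 3), with 15 to 17 estimates below 0. The estimates of the list are not independent, since products of 1 hairpin and of 1 cell type share their source, and WT 1 alone held the highest neuronal sum. Among the neuronal products, miR-132, which neuronal activity induces, had a log2 fold change of -0.20 ± 0.22 for miR-132-3p (631 to 1962 RPM in WT and 725 to 1463 RPM in AD mice) and -0.30 ± 0.28 for miR-132-5p (3134 to 7526 RPM in WT and 2235 to 7182 RPM in AD mice). miR-129-5p had -0.28 ± 0.18, with 4095 to 8360 RPM in WT and 2694 to 4954 RPM in AD mice. The Mir124a-1 3p arm had -0.30 ± 0.33.

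The imprinted Dlk1-Dio3 cluster at chr12:109452823-110281097 gave 76 products tested, more than any other list. Of these, 30 estimates were above 0 and 46 below, and 1 product (miR-377-5p) had an unadjusted p under 0.05, against 1.87% of all products tested. The median was -0.06, and leaving out each library in turn gave -0.14 (without AD 2) to 0.0023 (without WT 4). The summed level was 39442 to 71279 RPM in WT (median 51564) and 48624 to 61634 RPM in AD mice (median 50941). After miR-127-3p its most abundant product was miR-434-5p, with medians of 7892 RPM in WT (2195 to 13209) and 6744 RPM in AD mice (1626 to 9039) and a log2 fold change of -0.42 ± 0.41.

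Other families that have been studied in Alzheimer's disease gave no product at an unadjusted p under 0.05. The 6 miR-29 products, whose targets include Bace1, had a median log2 fold change of -0.20. Leaving out each library in turn gave -0.43 (without AD 2) to -0.03 (without AD 5). miR-29a-3p had medians of 1962 RPM in WT (798 to 3841) and 2031 RPM in AD mice (940 to 5408), and miR-29b-3p 158 RPM in WT (88.2 to 462) and 187 RPM in AD mice (93.4 to 485). The 4 miR-34 products, targets of p53, had a median of 0.09, which was -0.15 without AD 1 and 0.28 without WT 2. miR-34a-5p had medians of 22.6 RPM in WT (7.01 to 53.5) and 27.1 RPM in AD mice (6.59 to 101). The Mir34c 5p arm had medians of 183 RPM in WT and 130 RPM in AD mice. The 8 miR-181 products had a median of -0.09, which was -0.22 without WT 6 and 0.02 without WT 1. miR-181a-5p had medians of 2035 RPM in WT (427 to 2843) and 1385 RPM in AD mice (568 to 3318). Here too the genotypes overlapped for each product named.

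The miR-26 and miR-30 list (14 products tested, median 0.16), the miR-15, miR-16, miR-103 and miR-107 list (6 products, median 0.16) and the list of the miR-17 and miR-106b clusters (8 products, median 0.15) likewise gave none. Without AD 2 the medians of these lists, in the same order, were 0.08, 0.0079 and -0.00087. In the last of these, miR-92a-3p had 58.4 to 294 RPM in WT and 101 to 783 RPM in AD mice, with a log2 fold change of 0.81 ± 0.43, and miR-25-3p had 0.12 ± 0.22. miR-103-3p had medians of 1903 RPM in WT and 1621 RPM in AD mice, and miR-16-5p of 81.8 RPM in WT and 80.5 RPM in AD mice. The let-7 and miR-98 list (15 products, median 0.05) gave none, and the list of miR-99, miR-100 and miR-125 (9 products, median 0.02) gave miR-100-5p alone.

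In the vascular list 6 products were tested and the median was -0.05, with -0.18 without AD 2 and 0.06 without WT 2. miR-126a-3p, a miRNA of endothelial cells, had medians of 11561 RPM in WT (6106 to 19376) and 11112 RPM in AD mice (5778 to 14699), and the Mir143 3p arm, from smooth muscle, 7374 RPM in WT and 8188 RPM in AD mice. In the erythroid list 5 products were tested and the median was -0.14. It was -0.24 without WT 7 and 0.04 without WT 6, so its sign rests on single libraries. miR-451a, the miRNA of red blood cells, had medians of 451 RPM in WT (74.0 to 593) and 283 RPM in AD mice (93.7 to 516), with a log2 fold change of -0.56 ± 0.42.

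Arm use was compared next, as the log2 ratio of 5p to 3p reads of each hairpin locus, where loci that share a product were joined. Of 249 loci with a mean of at least 50 reads, 124 had most reads on the 3p arm and the rest on the 5p arm. In 86 loci over 90% of reads were 5p and in 92 over 90% were 3p, and 71 lay between. Over all reads the 5p share was 51.5% ± 7.4 (SD, n = 7) in WT and 53.7% ± 2.5 in AD mice, a difference of 2.18 ± 2.97 percentage points (SE; two-sided exact permutation p = 0.615, adjusted over 7 measures 0.857). WT 1, with its high miR-128-3p, was lowest at 35.8%.

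The most abundant loci used a single arm almost alone. The 5p share of Mir128-1/Mir128-2 was 0.049% ± 0.036 in WT and 0.049% ± 0.026 in AD mice, and that of Mir148a was 0.0063% ± 0.0037 in WT and 0.0066% ± 0.0045 in AD mice. For Mir9-1/Mir9-2/Mir9-3 it was 98.2% ± 0.54 in WT and 98.2% ± 0.44 in AD mice. Mirlet7f-1/Mirlet7f-2 had 99.99% in both groups, and Mirlet7i and Mir99a, whose minor arms had under 10 reads a library on average and were not tested, were also above 99.9% in every library.

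At the other end, 5 loci with at least 1000 reads had arms closest to equal. The 5p share of Mir382 was 38 to 75.7% in WT (median 51.4) and 33.6 to 58.3% in AD mice (median 47.0), with WT 1 highest. That of Mir30e was 33.1 to 74.2% in WT (median 59.4) and 30.7 to 90.01% in AD mice (median 58.5), with AD 2 highest. Mir1843b had medians of 51.7% in WT and 55.4% in AD mice, Mir136 of 57.5% in WT and 60.5% in AD mice, and Mir676 of 35.6% in WT and 35.9% in AD mice. The groups overlapped at each of these loci, and the differences of the log2 ratio lay between -0.43 ± 0.48 (SE, Mir136) and 0.08 ± 0.55 (Mir1843b).

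Of the 142 loci tested for arm use, 0 (0%) were called at an adjusted p under 0.05 (limma), and 2 (1.41%) had an unadjusted p under 0.05, 1 (0.704%) in each direction. A fit of arm counts in edgeR called 0 loci as well. In the limma fit Mir23b, a vascular and astrocyte miRNA, had a 5p share of 0.38 to 1.68% in WT (median 1.15) and 0.085 to 1.24% in AD mice (median 0.66), a difference of -1.16 ± 0.50 in log2 ratio (SE; limma adjusted p = 0.98) that rests on a mean of 12.6 5p reads a library. Without WT 3, AD 2 and AD 4 this difference was -0.51. Mir26a-1/Mir26a-2 had a difference of 0.76 ± 0.35 (limma adjusted p = 0.98) with a 5p share over 99.97% in each library. The next 3 by p were Mir412 (0.79 ± 0.47), Mir323 (-0.79 ± 0.48) and Mir218-1/Mir218-2 (-1.07 ± 0.65). The arm with most reads was not the same in WT and AD means at 2 tested loci, Mir382 and Mir339, and it varied between single libraries at 27 loci. At Mir382 the difference was -0.40 ± 0.35 (SE), and -0.15 without WT 1, whose 5p share of 75.7% was the highest.

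**Figure D4:**
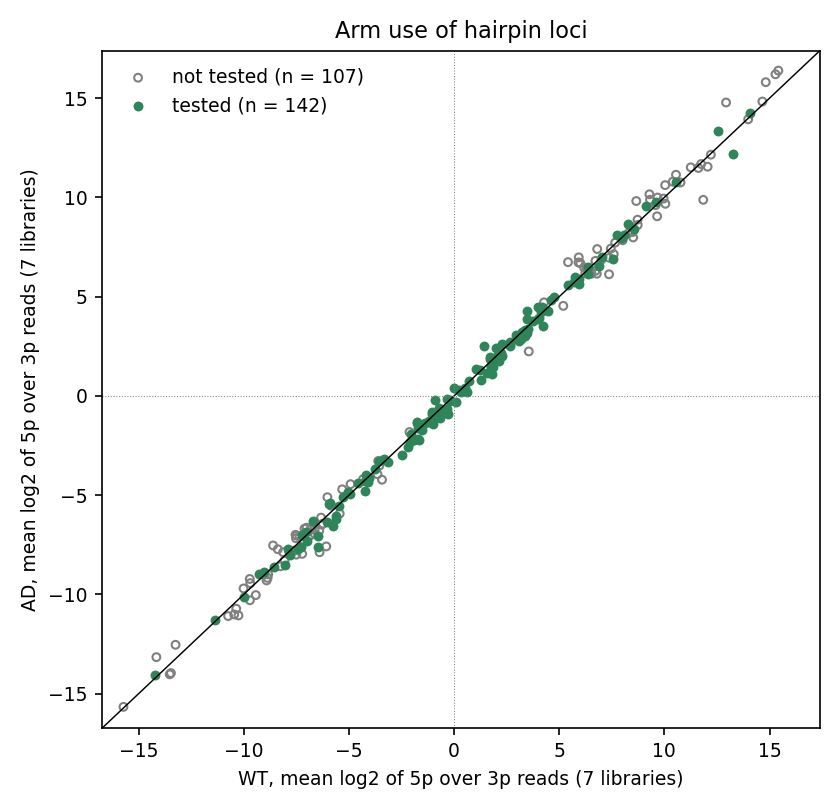
Mean log2 ratio of 5p over 3p reads of each hairpin locus in 7 WT libraries (horizontal) and in 7 AD libraries (vertical), with the line of equality. The 142 tested loci (filled) and the loci with too few reads of the minor arm (open) lie along the line, and none was called.

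The 5p and 3p products were of similar length. Over all 5p reads the mean length was 21.92 nt ± 0.17 (SD, n = 7) in WT and 21.94 nt ± 0.10 in AD mice, and over all 3p reads it was 21.75 nt ± 0.08 in WT and 21.77 nt ± 0.05 in AD mice. The differences between genotypes were 0.014 ± 0.077 nt (SE; two-sided exact permutation p = 0.857) for 5p reads and 0.019 ± 0.035 nt (p = 0.593) for 3p reads, both with an adjusted p of 0.857. The 3p reads were more concentrated, with 61.2% ± 3.1 of 22 nt in WT and 61.4% ± 3.1 in AD mice, against 46.6% ± 4.5 and 48.2% ± 3.1 of 5p reads. These shares weigh products by their reads, and miR-128-3p and miR-148a-3p alone held 24.9% and 10.2% of hairpin reads. Counted by product, 22 nt was the commonest length of 47.4% of 3p and 41.5% of 5p products. Of 5p reads, 14.6% ± 2.8 in WT and 13.4% ± 1.9 in AD mice were of 23 nt, and 6.6% ± 2.6 and 7.2% ± 2.4 of 24 nt. Of 3p reads, 0.75% ± 0.31 in WT and 0.73% ± 0.23 in AD mice were of 24 nt.

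**Figure D5:**
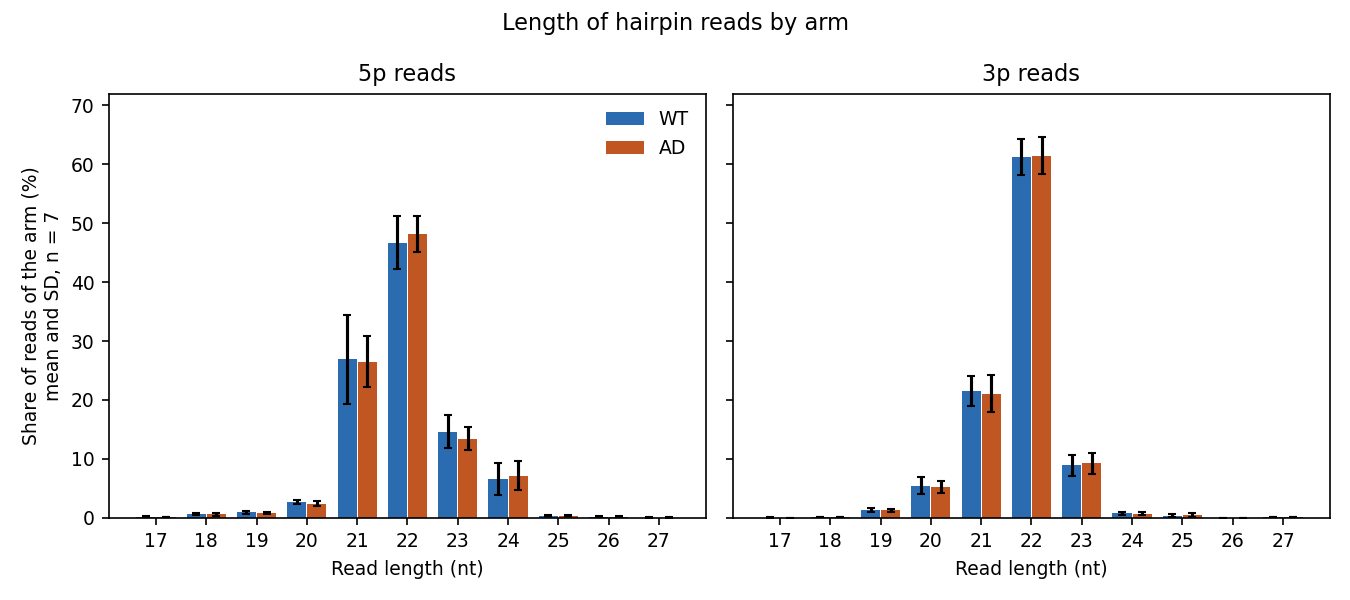
Share of 5p reads (left) and of 3p reads (right) at each length from 17 to 27 nt, as the mean of 7 WT and 7 AD libraries with SD as error bars. The mode is 22 nt in both arms and genotypes, at 46.6% and 48.2% of 5p reads and 61.2% and 61.4% of 3p reads in WT and AD.

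Product by product, 22 nt was the commonest length of 59 of 142 5p products and of 63 of 133 3p products, and 21 nt of 37 and 40. miR-148a-3p was of 22 nt in 99.7% ± 0.1 of WT and 99.6% ± 0.1 of AD reads, whereas miR-9-5p was of 22 nt in 43.1% ± 3.1 and 41.3% ± 3.6. let-7i-5p was of 22 nt in 89.0% ± 2.2 and 87.7% ± 3.2, let-7f-5p in 72.8% ± 3.4 and 73.8% ± 3.1, and miR-99a-5p of 21 nt in 94.4% ± 4.1 and 95.7% ± 0.7. miR-127-3p averaged 21.33 nt ± 0.16 in WT and 21.44 nt ± 0.12 in AD mice, and miR-126a-3p 21.10 nt ± 0.07 and 21.12 nt ± 0.05.

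Among products with at least 1000 reads, the shortest 5p product was miR-330-5p, at 20.34 nt ± 0.09 in WT and 20.32 nt ± 0.10 in AD mice, and the longest was miR-425-5p, at 24.57 nt ± 0.23 and 24.60 nt ± 0.18. The shortest 3p product was the Mir124a-1 3p arm, at 19.42 nt ± 0.09 and 19.42 nt ± 0.11. The longest 3p product came from a hairpin with the symbol Snord43, at 27.07 nt ± 0.25 and 27.11 nt ± 0.18. Snord43 is the name of a small nucleolar RNA, which the annotation used also lists as miRNA.

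None of the 275 products tested for mean length was called at an adjusted p under 0.05 (limma, 0%), and 1 (0.364%), miR-30c-5p, had an unadjusted p under 0.05. It was of 23.17 nt ± 0.02 in WT and 23.21 nt ± 0.04 in AD mice, a difference of 0.040 ± 0.019 nt (SE; limma adjusted p = 0.999). The next 4 were the Mir145a 5p arm (0.090 ± 0.045 nt), miR-129-2-3p (0.146 ± 0.079 nt), let-7d-3p (0.074 ± 0.040 nt) and the Mir145a 3p arm (0.124 ± 0.068 nt). AD estimates were above WT in 182 products and below in 93, with a median of 0.013 nt and a smallest adjusted p of 0.999. Products of the same libraries are not independent, so these counts are no test. WT 4 had the lowest mean length of 5p reads (21.66 nt) and of 3p reads (21.64 nt). Without WT 4 the differences over all reads were -0.029 nt (5p) and 0.00037 nt (3p). For 265 products the 95% interval lay within 1 nt of 0.

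The seed is set by the 5′ end, and that end was precise. The commonest first 12 bases of a product held 97.4% ± 0.6 of hairpin reads in WT and 97.5% ± 0.2 in AD mice (exact permutation p = 0.756, adjusted p = 0.857). Over the 275 products the median was 98.1%, with 176 products over 95% and 22 under 60%. Among products with a RefSeq name and at least 1000 reads, the least precise ends included those of miR-101a-3p (55.7% ± 3.0 in WT and 55.8% ± 3.9 in AD mice), miR-29a-3p (52.3% ± 6.7 and 53.1% ± 4.5) and miR-140-3p (51.2% ± 3.0 and 49.9% ± 3.4).

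Of 229 products with a RefSeq mature sequence, the most frequent read started at the mature 5′ end in 199 and was the same sequence in 117. It was shorter at the 3′ end in 58 and longer in 24, and it started later in 17 products and earlier in 13. The products of miR-142a are examples where reads carry another seed than the RefSeq sequence shown above. The most frequent read of miR-142a-5p begins 2 bases before it and that of miR-142a-3p 1 base after it. These reads are shown 5′ to 3′ with their own bases 2 to 8 in capitals.
miR-142a-5p read: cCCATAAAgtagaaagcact
miR-142a-3p read: gTAGTGTTtcctactttatgga

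Reads with 1 untemplated base at the 3′ end, which match a hairpin only when that base is removed, added to the exact reads. They were 22.6% ± 3.7 of exact and tailed reads together in WT and 23.9% ± 2.4 in AD mice, a difference of 1.33 ± 1.68 percentage points (SE; exact permutation p = 0.435, adjusted p = 0.857). The added base was A in 39.4% ± 9.6 of these reads in WT and 37.0% ± 6.0 in AD mice, T (a U in RNA) in 33.1% ± 7.3 and 33.7% ± 5.9, C in 25.03% ± 9.0 and 26.4% ± 4.0, and G in 2.5% ± 0.6 and 2.9% ± 1.0. Sequencing errors at the last base are counted with the tails.

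The tailed share ranged from 3.54 to 84.3% over the 275 products, with a median of 21.2%. Among products over 1000 RPM, the tailed share was highest for miR-132-3p (76.0% ± 5.0 in WT and 74.99% ± 2.7 in AD mice) and miR-127-3p (76.0% ± 8.2 and 74.6% ± 7.5), where T made up 92.4% and 76.8% of the added bases. It was 47.6% ± 4.5 and 52.5% ± 5.0 for miR-30a-3p, with 88.7% T. At the low end miR-148a-3p had 10.8% ± 4.8 and 12.4% ± 3.0, and miR-136-5p 10.02% ± 5.4 and 11.7% ± 5.9. No test was made product by product.

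Hairpin reads were 42.6% ± 5.4 of all reads in WT and 41.8% ± 6.3 in AD mice, a difference of -0.76 ± 3.15 percentage points (SE; exact permutation p = 0.85, adjusted p = 0.857). The 10 most abundant products of each library held 72.4% ± 5.2 of hairpin reads in WT and 71.8% ± 3.0 in AD mice (exact permutation p = 0.797, adjusted p = 0.857). The exact test has 3432 splits of 7 against 7 libraries, so its smallest p is 0.000583. None of the 7 measures of a library was called.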

How the data were processed

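The authors deposited, for each library, counts of reads per distinct sequence (15 to 42 nt in these files), not normalized. The labels name build mm39 for processing, and the study annotated reads with SPORTS1.1. Here the files were matched instead to 2202 miRNA transcripts of GENCODE M21 (GRCm38), since the files hold no coordinates. Libraries were grouped by the genotype and protocol in their labels. Total reads were 9370669 to 17053412 a library, and hairpin reads 3879671 to 7090394. Reads carry no molecular identifiers, so counting error is a lower limit, and the spread between libraries was used. A read that matched several products went to the one with most reads, and 0.561% of hairpin reads also matched another small RNA.

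Product counts were tested over all products with edgeR 4.0.16 (R 4.3.3, TMM, filterByExpr with a smallest count of 10 and total of 15, quasi-likelihood test), with calls made where the adjusted p was under 0.05 and the level differed over 2-fold. The study named the likelihood ratio test, which is an alternative here, as is DESeq2 1.42.0. Arm use was tested with limma 3.58.1 on log2((5p + 0.5)/(3p + 0.5)) for loci with a mean of at least 50 reads and 10 on the minor arm. Mean length was tested with limma for products with a mean of at least 100 reads and 10 in every library. The 7 measures of a library were compared by two-sided exact permutation tests, adjusted by the Benjamini-Hochberg method. Other alternatives changed filters, normalization, shared reads, read lengths, pseudocounts and the libraries left out. On simulated counts of these products, of which 474 passed the filter, 94 of 100 products changed 4-fold and 97 of 100 changed 8-fold were called, with 5 false calls. All these changes were made in the same simulated set and only in products above a floor of mean reads. Every product was given the common coefficient of biological variation of 0.55. The simulation therefore does not give the power for a few changed products, for low counts or for products that vary more.

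Products and lists were chosen with earlier results of these data known. Named are the 12 most abundant products, the 10 with the smallest p, the 2 most abundant of each list, and for arm use and length the most abundant, the most even or extreme, and the 5 with the smallest p. let-7a-5p, let-7d-5p, miR-183-5p, miR-142a, miR-129-5p, miR-132 and miR-124 products, the values by list in single libraries, products with imprecise ends or extreme tails, and Mir339 were named after their values were seen. PANDORA-seq libraries were not used. The study gives 7 mice in each group for traditional-seq, so libraries were taken as separate mice, although the labels do not name the mouse of a library.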

Additional observations from a re-analysis of the deposited data

Results flagged for a closer look

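In each genotype the highest or lowest of 7 libraries was compared with the rest (gap to the nearest over the whole range, Dixon's test at the 95% level, on the log2 scale for levels), for named products, lists, library measures, arm use and lengths. Chance gives about 1 in 20 groups, and here 20 of 216 stood out (9.26%), many of which share a library.

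AD 4 stood apart through products of other tissue. It had 21720 RPM of the miR-1a product (699 to 2584 in the other AD libraries), 1824 RPM of miR-10a-5p (229 to 545) and 1132 RPM of miR-10b-5p (85.7 to 231). Its muscle list summed to 21894 RPM (703 to 2625) and its hindbrain and spinal cord list to 2957 RPM (318 to 728). Where this RNA came from was not tested.

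miR-200a-3p, a miRNA of epithelium and olfactory tissue, was at 3319 RPM in WT 3 (14.4 to 143.8 in the other WT libraries) and at 3874 RPM in AD 2 (41.3 to 232 in the other AD libraries). AD 2 also had a low Mir3107 5p arm (58.2 RPM against 159 to 290), which shares reads with the erythroid miR-486. Its 5p share of Mir128-1/Mir128-2 was low at 0.0079% (0.035 to 0.083%), and that of Mir30e was high at 90.01% (30.7 to 61.6%). The part of other tissue in these values was not tested.

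WT 1 had the lowest share of 5p reads, 35.8% (50.7 to 58.6% in the other WT libraries), and low levels of miR-127-3p (5052 RPM against 10709 to 18528) and miR-100-5p (3130 RPM against 6290 to 9227). In WT 1 miR-128-3p held 52.6% of hairpin reads, which lowers the RPM of its other products. Levels were flagged without the TMM factor (0.647 in WT 1), and the comparison with it was not made. The 5p share of Mir382 in WT 1 was 75.7% (38 to 52.9%), and its let-7i-5p averaged 21.92 nt (21.86 to 21.88).

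In WT 2 miR-99a-5p was at 1087 RPM (14952 to 103313) with a mean length of 21.11 nt (21.02 to 21.04). In WT 6 miR-451a was at 74.0 RPM (361 to 593). The Dlk1-Dio3 cluster summed to 61634 RPM in AD 1 (48624 to 51219), and 5p reads averaged 22.14 nt in AD 3 (21.83 to 21.96).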

How the results depend on the processing

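No alternative called a locus for arm use or a product for length, and 15 of 16 for product levels called none. Without a filter on low counts 1 product was called, with or without a fold change over 2: let-7a-2-3p, with 0 or 1 read in each WT library and 1 to 15 in each AD library (log2 fold change 4.55, adjusted p = 0.0152), and 101 of 1449 products had an unadjusted p under 0.05. Leaving out each library in turn gave 0 calls in each of the 3 comparisons, with 5 to 16 products at an unadjusted p under 0.05. Without the 3 libraries with marks of other tissue (added after seeing the data) 0 of 491 were called, and the log2 fold changes of miR-146a-5p and miR-10a-5p were 0.54 and 0.54, that of miR-137-5p -0.39 and the arm use difference of Mir23b -0.51. Without WT 7, 0 of 484 products were called. With tailed reads added, miR-3064-5p and miR-377-5p had 0.59 and -0.43. With 2 principal components as covariates (also added later) the smallest adjusted p was 0.24, for miR-146a-5p. Among named products, miR-128-3p moved to 0.27 without WT 1, miR-7a-5p to 0.58 without WT 6 and -0.31 without AD 3, and miR-148a-3p and miR-218-5p to 0.26 and -0.72 without those 3 libraries.

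The replicate numbers did not pair libraries: same-numbered libraries had correlations of deviations from -0.44 to 0.39, over 0.1 in 2 of 7 pairs, and 1 of 7 correlated best with its own number. With the replicate number as a block, 0 products, 0 loci and 0 lengths were called, with 2, 1 and 0 at an unadjusted p under 0.05.

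Differences of the library measures stayed uncalled. With each library left out in turn, AD minus WT was -2.17 to 0.45 points for the share of hairpin reads. It was -0.44 (without WT 1) to 3.36 points for 5p reads and -2.04 to 0.89 points for the 10 most abundant products. For the modal 5′ end it was -0.10 to 0.24 points and for tailed reads 0.70 to 2.28 points. For mean length it was -0.029 to 0.050 nt (5p) and 0.00037 to 0.034 nt (3p), both lowest without WT 4. The 967 products below the filter on low counts had few reads, which limits what could be detected among them.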
